A study of Drosophila melanogaster with 22 samples.

Results

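The mRNAs of bicoid (bcd), oskar (osk), gurken (grk), polar granule component (pgc) and germ cell-less (gcl) were followed through the first 8 days of adult life in anterior ovarioles of Drosophila melanogaster. They are 5 of the 17478 genes in the deposited counts, chosen by their symbols in the FlyBase annotation of release 6 that the authors deposited. Each symbol matched 1 gene, and all 5 genes passed the filter on low counts. An anterior ovariole holds the germarium, with the germline and follicle stem cells, and the young egg chambers behind it. The flies were unmated females of the white-eyed laboratory strain w1118. The labels give no treatment, and each library came from polyA RNA of a pool of hand-dissected ovarioles.

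Libraries of days 5, 6, 7 and 8 after eclosion had 3 biological replicates each (n = 12), and those ovarioles were cut off behind stage 7 egg chambers. Libraries of days 1 to 4 (n = 10) numbered 2 on days 1 and 4 and 3 on days 2 and 3, and those ovarioles were cut off behind stage 8. Age and dissection therefore coincide between these series, and they cannot be told apart in any difference between days 5 to 8 and days 1 to 4. Gene counts per library were 2975582 to 4634327 in days 5 to 8 and 1146915 to 9781870 in days 1 to 4. Replicate 1 of day 2, replicate 2 of day 3 and replicate 2 of day 4 stood apart from the rest: they held 19 to 52 counts of the spike-in control RNA, against 25577 or more in each of the other 19. The series comparison is given with and without these 3 libraries below. Among the other 19, spike-in made up 0.912 to 43.5% of the gene and spike-in counts, with a median of 1.72%. It was highest in replicate 1 of day 4 (43.5%), followed by replicate 2 of day 2 (11.95%). In bulk tissue, fewer cells of a type and less RNA per cell cannot be told apart.

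In the Drosophila ovary the nurse cells make most of the mRNA of the oocyte and pass it through cytoplasmic bridges, and some of these mRNAs are anchored at one pole of the oocyte. bcd mRNA is held at the anterior and encodes the homeodomain morphogen that patterns head and thorax. osk mRNA goes to the posterior, where Oskar protein nucleates the germ plasm that later specifies the germ cells. grk encodes a TGF-alpha-like ligand of the Egf receptor that signals from the oocyte to the follicle cells and sets both body axes. pgc and gcl act in the embryo, in the primordial germ cells: the small protein Pgc blocks transcription by RNA polymerase II, and Gcl, a BTB-domain adaptor of a ubiquitin ligase, is needed to form these cells.

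osk was by far the most abundant of the 5 mRNAs, and bcd was the least abundant per length in 21 of the 22 libraries. Between genes, levels are compared as CPM, counts scaled to a common library size with TMM, per kilobase of exon. On this scale osk (FBgn0003015; 3R, 8935126 to 8938395, plus strand; 2968 exon bases) averaged 816 ± 88.0 in days 5 to 8 and 688 ± 94.7 in days 1 to 4 (SD, n = 12 and 10). gcl (FBgn0005695; 2R, 8724258 to 8728999, plus strand; 2509 exon bases) averaged 31.6 ± 6.75 CPM per kilobase in days 5 to 8 and 41.5 ± 9.13 in days 1 to 4. grk (FBgn0001137; 2L, 8431086 to 8433598, minus strand; 1718 exon bases) averaged 36.8 ± 4.82 CPM per kilobase in days 5 to 8 and 29.9 ± 4.10 in days 1 to 4. pgc (FBgn0016053; 2R, 22330200 to 22332813, plus strand; 1212 exon bases) averaged 22.7 ± 5.68 CPM per kilobase in days 5 to 8 and 38.5 ± 12.9 in days 1 to 4. bcd (FBgn0000166; 3R, 6755842 to 6759466, minus strand; 2536 exon bases) averaged 11.1 ± 2.24 CPM per kilobase in days 5 to 8 and 14.8 ± 1.77 in days 1 to 4. Coordinates are those of the deposited annotation.

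Among the 8024 genes tested, ordered by mean CPM per kilobase, osk stood at rank 111, gcl at 2011, grk at 2148, pgc at 2424 and bcd at 4683. Within each library osk exceeded the next of the 5 by 17.3- to 31.96-fold in days 5 to 8 and by 11.2- to 25.6-fold in days 1 to 4. It alone held 0.183 to 0.290% of the gene counts of a library. The places behind osk were not the same in the series. grk lay above gcl in 10 of the 12 libraries of days 5 to 8 and in 1 of the 10 libraries of days 1 to 4, and above pgc in 11 of 12 and in 3 of 10. These orders are descriptions, with no test.

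**Figure D1:**
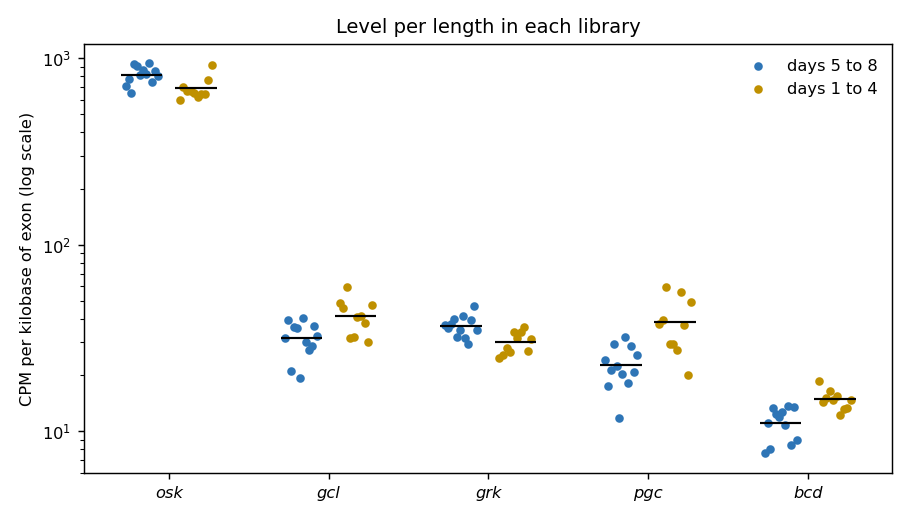
Level of each of the 5 mRNAs per length of exon, in CPM per kilobase on a log scale, with 1 point per library and a bar at the mean of the series; days 5 to 8 (n = 12) stand left of days 1 to 4 (n = 10). osk lies at least 11.2-fold above each other mRNA in every library, and bcd is the lowest in 21 of 22.

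Within a series, no difference among days was called for any of the 5 mRNAs. The levels below are CPM in each library, in the order of the replicate numbers. bcd had 47.0 and 36.5 CPM on day 1, then 38.0, 41.6 and 37.2 on day 2, 39.2, 31.1 and 33.5 on day 3, and 33.9 and 37.5 on day 4. It had 19.3, 28.0 and 20.4 CPM on day 5, 33.7, 31.6 and 30.3 on day 6, 32.1, 27.6 and 34.7 on day 7, and 21.4, 34.3 and 22.9 on day 8. The low values were on days 5 and 8, where 4 of 6 libraries had 22.9 CPM or less. Day 5 lay wholly below day 6, and the other pairs of days from 5 to 8 overlapped.

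osk had 1778 and 2083 CPM on day 1, then 1979, 1981 and 1936 on day 2, 1831, 1911 and 1909 on day 3, and 2274 and 2740 on day 4. It had 2101, 2299 and 1929.7 CPM on day 5, 2758, 2685 and 2402 on day 6, 2572.5, 2442 and 2780 on day 7, and 2214, 2523 and 2369.5 on day 8. Both libraries of day 4 were above every library of days 1 to 3. Days 6 and 7 each lay wholly above day 5, and the other pairs of days from 5 to 8 overlapped.

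grk had 42.2 and 44.2 CPM on day 1, then 48.3, 45.8 and 58.3 on day 2, 54.6, 58.8 and 62.6 on day 3, and 46.0 and 53.6 on day 4. It had 63.5, 61.2 and 64.5 CPM on day 5, 68.9, 55.2 and 59.8 on day 6, 71.6, 54.6 and 50.3 on day 7, and 68.1, 80.4 and 59.9 on day 8. Day 1 was the lowest day of grk, without overlap with any other day.

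pgc had 45.7 and 47.8 CPM on day 1, then 72.2, 35.6 and 35.6 on day 2, 33.3, 67.5 and 45.1 on day 3, and 24.2 and 60.1 on day 4. It had 29.2, 21.1 and 25.8 CPM on day 5, 35.5, 27.1 and 14.4 on day 6, 24.5, 38.9 and 22.01 on day 7, and 34.5, 25.3 and 31.2 on day 8. Its 3 highest values, 72.2, 67.5 and 60.1 CPM, came from the 3 libraries that lacked spike-in. Its lowest value in days 1 to 4, 24.2 CPM, was in replicate 1 of day 4, the library with the largest share of spike-in.

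gcl had 123 and 115 CPM on day 1, then 148, 79.5 and 80.2 on day 2, 102, 104 and 96.1 on day 3, and 75.1 and 119 on day 4. It had 79.5, 99.1 and 52.6 CPM on day 5, 91.3, 89.9 and 48.4 on day 6, 102, 75.4 and 68.8 on day 7, and 72.1, 91.6 and 81.1 on day 8. Within each of days 2, 3 and 4 its highest value was in the library that lacked spike-in, and every day overlapped with other days. Its lowest value in days 1 to 4, 75.1 CPM, was also in replicate 1 of day 4.

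**Figure D2:**
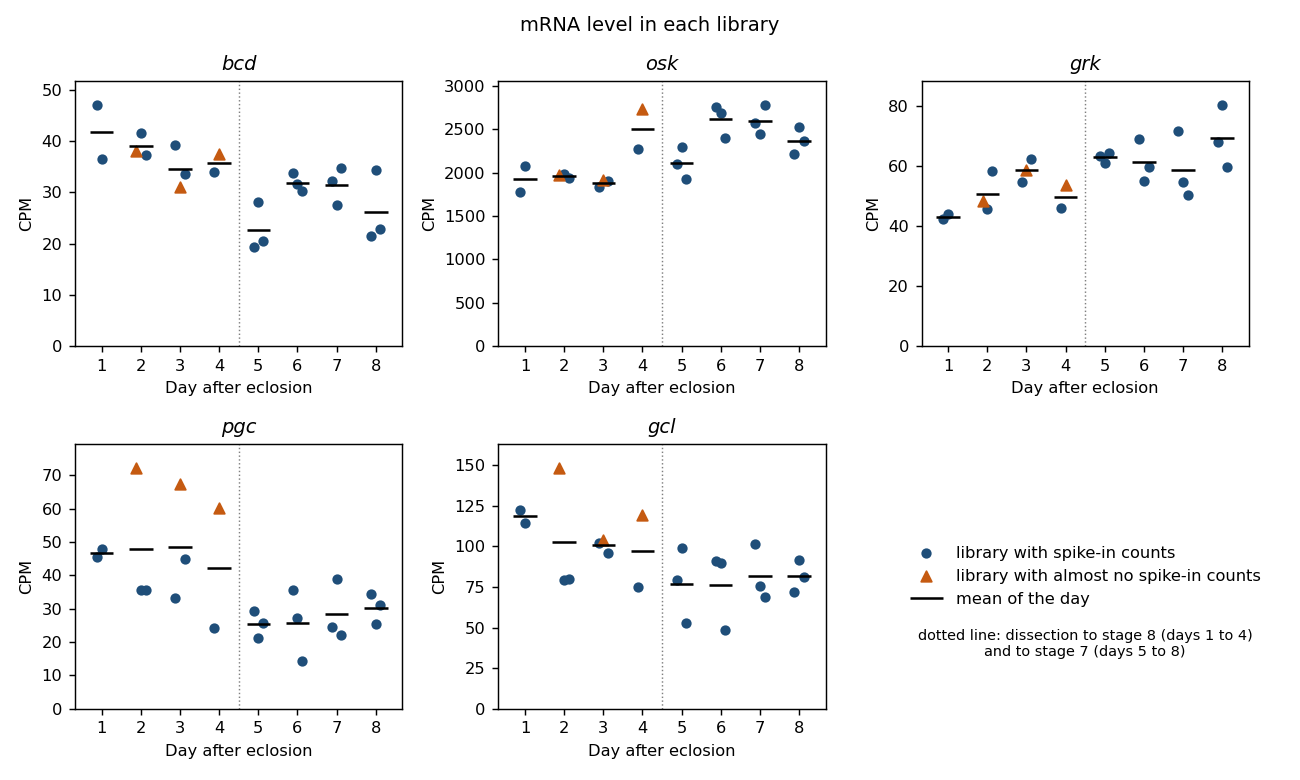
CPM of each mRNA by day after eclosion, with 1 point per library and a bar at the mean of the day; triangles mark the 3 libraries that lacked spike-in, and the dotted line parts the series dissected to stage 8 and to stage 7. All 3 triangles of pgc lie between 60.1 and 72.2 CPM, above the other 19 libraries.

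The question within a series is whether any of its days differed. In days 1 to 4, edgeR's quasi-likelihood F-test called none of the 5 mRNAs, with adjusted p = 0.556 for osk, 0.774 for grk, 0.921 for bcd, 0.967 for gcl and 0.993 for pgc. The test called 2 of 8024 genes (0.0249%), and 650 had an unadjusted p under 0.05, among them osk (unadjusted p = 0.0330). The DESeq2 count of called genes was 55. In days 5 to 8 edgeR again called none of the 5 (adjusted p = 1 for each), with unadjusted p = 0.0766 for bcd, 0.0778 for osk, 0.494 for grk, 0.862 for pgc and 0.969 for gcl. It called 1 of 8024 genes (0.0125%), 248 had an unadjusted p under 0.05, and the DESeq2 count was 17. On counts simulated for the same 8024 genes, a 2-fold change of the last day was recovered for 22% of 50 genes in days 1 to 4 and for 54% in days 5 to 8. Over such genes a change of that size on the last day could therefore go uncalled, most of all in days 1 to 4, where day 4 had 2 libraries. The genes were drawn at random over all levels. Recovery was not computed for the 5 mRNAs or for a change on another day.

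Ordered by the mean of the day, osk was highest on day 6 with 2615 ± 188 CPM (SD, n = 3) and lowest on day 3 with 1883.5 ± 45.7 (n = 3). bcd was highest on day 1 with 41.7 ± 7.46 CPM (n = 2) and lowest on day 5 with 22.6 ± 4.76 (n = 3). grk was highest on day 8 with 69.5 ± 10.3 CPM (n = 3) and lowest on day 1 with 43.2 ± 1.36 (n = 2). pgc was highest on day 3 with 48.6 ± 17.4 CPM and lowest on day 5 with 25.4 ± 4.08 (n = 3 each). gcl was highest on day 1 with 119 ± 5.74 CPM (n = 2) and lowest on day 6 with 76.5 ± 24.4 (n = 3). Of the 7 pairs of neighbours in such an order of days, the libraries did not overlap in 1 pair for grk (day 4 over day 1) and in 0 pairs for bcd, osk, pgc and gcl.

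Between the series, osk and grk were called higher and bcd and pgc lower in the older ovarioles. The call of pgc was lost without the 3 libraries that lacked spike-in. Those of osk, grk and bcd were lost with only these 3 for days 1 to 4. The comparison asks how mRNA levels on days 5 to 8, dissected to stage 7, differed from those on days 1 to 4, dissected to stage 8. edgeR called 4 of the 5 mRNAs at an adjusted p under 0.05, 2 higher and 2 lower, against 708 of all 8024 genes (8.82%), of which 326 were higher (4.06%) and 382 lower (4.76%). The median change of all tested genes was -0.02 on the log2 scale, with quartiles at -0.20 and 0.15. No mRNA of the 5 parted the series without overlap, which 11 genes did upward (0.137%) and 18 downward (0.224%).

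osk averaged 2423 ± 261 CPM in days 5 to 8 and 2042 ± 281 CPM in days 1 to 4 (SD, n = 12 and 10). The lowest, median and highest values were 1929.7, 2422 and 2780 CPM in the older libraries and 1778, 1957 and 2740 CPM in the younger ones. The change was 0.23 ± 0.07 on the log2 scale (SE, edgeR adjusted p = 0.0350), and 11 of the 12 older libraries lay above the median of the younger ones. The call was lost without any 1 of 9 of the 22 libraries, among them replicate 1 of day 1 (log2 0.21, adjusted p = 0.118) and replicate 1 of day 4 (log2 0.21, adjusted p = 0.0925), although the change stayed between 0.21 and 0.27 throughout. The other 7 were replicate 2 of day 2 (adjusted p = 0.0514), replicate 2 of day 5 (0.0657), replicate 1 of day 6 (0.0559), replicate 2 of day 6 (0.0516), replicate 3 of day 7 (0.0636), replicate 2 of day 8 (0.0548) and replicate 3 of day 8 (0.0544). When the 3 libraries lacking spike-in were left out, the change was 0.28 (adjusted p = 0.00466).

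grk averaged 63.2 ± 8.28 CPM in days 5 to 8 and 51.4 ± 7.05 CPM in days 1 to 4 (SD, n = 12 and 10). Its lowest, median and highest values were 50.3, 62.3 and 80.4 CPM in the older libraries and 42.2, 50.9 and 62.6 CPM in the younger ones. The change was 0.32 ± 0.09 on the log2 scale (SE, edgeR adjusted p = 0.0258), with 6 of 12 older libraries above every younger one. It was not called without replicate 1 of day 1 (0.32, adjusted p = 0.0648) or without replicate 1 of day 4 (0.31, adjusted p = 0.0563). With the 3 libraries lacking spike-in left out it was 0.36 (adjusted p = 0.0316). The annotation places 212 exon bases of grk opposite those of Akap200, a gene on the other strand with 43561 counts against the 4315 of grk over all libraries. The libraries were stranded per the labels, but the strand setting of the counting was not stated in the sources used here.

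bcd averaged 28.0 ± 5.68 CPM in days 5 to 8 and 37.6 ± 4.50 CPM in days 1 to 4 (SD, n = 12 and 10). Its lowest, median and highest values were 19.3, 29.2 and 34.7 CPM in the older libraries and 31.1, 37.4 and 47.0 CPM in the younger ones. It fell by 0.43 on the log2 scale (SE 0.11, edgeR adjusted p = 0.0149). All 12 older libraries lay below the median of the younger ones, and 7 lay below every younger library. Without the 3 libraries lacking spike-in the change was -0.43 (adjusted p = 0.0366), and without replicate 1 of day 1 it was -0.38 and not called (adjusted p = 0.0685).

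pgc averaged 27.5 ± 6.88 CPM in days 5 to 8 and 46.7 ± 15.6 CPM in days 1 to 4 (SD, n = 12 and 10). Its lowest, median and highest values were 14.4, 26.4 and 38.9 CPM in the older libraries and 24.2, 45.4 and 72.2 CPM in the younger ones. It fell by 0.79 on the log2 scale (SE 0.19, edgeR adjusted p = 0.0100). This value rests on the 3 libraries that lacked spike-in, in which pgc averaged 66.6 ± 6.14 CPM (SD, n = 3), against 38.2 ± 8.44 CPM in the other 7 libraries of days 1 to 4. Without those 3 the change was -0.37 and not called (adjusted p = 0.175), and with only those 3 for days 1 to 4 it was -1.26 (adjusted p = 0.000483). Leaving out replicate 2 of day 4 alone gave -0.57 (adjusted p = 0.0676). T3dh overlaps pgc on the opposite strand over 569 exon bases and had 614 counts against the 2915 of pgc.

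gcl averaged 79.3 ± 16.9 CPM in days 5 to 8 and 104 ± 22.9 CPM in days 1 to 4 (SD, n = 12 and 10). Its lowest, median and highest values were 48.4, 80.3 and 102 CPM in the older libraries and 75.1, 103 and 148 CPM in the younger ones. The log2 change of -0.41 ± 0.14 (SE) did not pass (edgeR adjusted p = 0.0746), with all 12 older libraries below the median of the younger ones and 4 below every one of them. In the 3 libraries lacking spike-in gcl averaged 124 ± 22.5 CPM, against 95.8 ± 18.5 CPM in the other 7 of days 1 to 4. The change was -0.20 without those 3 (adjusted p = 0.385) and -0.61 with only those 3 for days 1 to 4 (adjusted p = 0.0290). Without replicate 2 of day 5 gcl was called (-0.47, adjusted p = 0.0491).

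With those 3 libraries left out, edgeR called osk, grk and bcd, 3 of the 5 mRNAs, and 1157 of 8563 genes tested (13.5%), 6.74% being higher and 6.77% lower in days 5 to 8. In days 1 to 4 these 3 mRNAs differed less, in proportion, between the kinds of library than pgc and gcl did. osk averaged 2210 ± 461 CPM in the 3 libraries lacking spike-in and 1970.1 ± 167 CPM in the other 7 of days 1 to 4 (SD). grk averaged 53.5 ± 5.26 CPM in the 3 libraries lacking spike-in and 50.5 ± 7.88 CPM in the other 7. bcd averaged 35.6 ± 3.88 CPM in those 3 and 38.4 ± 4.74 CPM in the other 7. With only those 3 for days 1 to 4, edgeR called 19.0% of 7951 genes tested, 12.3% being higher and 6.72% lower in days 5 to 8, and none of these 3 mRNAs was called (log2 0.16 for osk, 0.26 for grk and -0.33 for bcd, adjusted p = 0.198, 0.194 and 0.165). Without a filter on low counts edgeR called 6.37% of 14319 genes, 3.06% being higher and 3.31% lower, and did not call osk (adjusted p = 0.144) or grk (0.0699) but called gcl (0.00473).

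Counting error, the spread that the counts alone would give, was 1.08% of the level for osk in days 5 to 8 and 1.603% in days 1 to 4, while its coefficient of variation among libraries was 10.8% and 13.8%. For bcd, counted 42 to 398 times in a library, counting error was 10.2% in days 5 to 8 and 11.6% in days 1 to 4, against a variation of 20.3% and 11.97%, so that in the younger series counting alone was nearly as large as the whole spread of bcd. For pgc the variation was 25.1% and 33.5% over a counting error of 10.4% and 11.7%. The median variation of all tested genes was 19.6% in days 5 to 8 and 25.3% in days 1 to 4.

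Late egg chamber markers moved with the series. Of 16 tested chorion and vitelline membrane genes, which follicle cells express late in oogenesis, 15 fell and 0 rose in days 5 to 8, with a median log2 change of -5.06, and their summed level was 93.9 to 403 CPM in days 5 to 8 and 618 to 2459 CPM in days 1 to 4. Of all 17 on the list none was without a count in days 1 to 4 or in days 5 to 8, and Vm26Ac had too few counts to test. The 3 yolk protein genes fell as well, with sums of 37.5 to 403 CPM in the older and 162 to 1135 CPM in the younger libraries. In the 3 libraries lacking spike-in the late egg chamber sum was 1156.5 to 1730 CPM, within the range of the other 7 libraries of days 1 to 4. Over all tested genes 4.06% were called higher and 4.76% lower. The part of these markers in the changes of the 5 mRNAs was not tested.

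The tissue label was checked against markers of the cells an ovariole can hold. The 8 germline markers tested summed to 2078.5 to 2474 CPM in days 5 to 8 and 1706 to 2510.3 CPM in days 1 to 4, with 2 lower (vas and nos) and 0 higher. The 8 follicle cell markers summed to 1541 to 2206 CPM in the older and 916 to 1840 CPM in the younger libraries, with 3 higher and 0 lower, and to 916 to 1105.5 CPM in the 3 libraries lacking spike-in. All 10 muscle markers of the ovariole sheath fell, with sums of 273 to 695 CPM in days 5 to 8 and 424 to 2491 CPM in days 1 to 4. Of 5 hemocyte markers 3 were tested and 2 fell, and He had 0 counts in every library. Of the 6 fat body and 5 testis markers only Rfabg and bol were tested, and neither was called. These counts stand beside 4.06% called higher and 4.76% called lower over all tested genes. None of the marker sums was tested as a source of the changes in the 5 mRNAs.

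A ratio of 2 mRNAs within a library does not depend on how the library was scaled, and osk, the best counted of the 5, served as the denominator. bcd, pgc and gcl all fell against osk in days 5 to 8, while grk showed no detectable difference. The log2 ratio of bcd to osk averaged -6.45 ± 0.18 in days 5 to 8 and -5.75 ± 0.28 in days 1 to 4 (SD, n = 12 and 10), a difference of -0.69 (permutation test of 100000 resamples, two-sided, p = 1e-05, the smallest they can give; adjusted over the 4 ratios 4e-05). All 12 older values, from -6.76 to -6.19, lay below all 10 younger ones, from -6.18 to -5.23, by a narrow gap. Of 8023 tested genes set against osk in the same way, 38 were lower without overlap (0.474%) and 0 were higher. The median difference over them was -0.26, with quartiles at -0.45 and -0.10, so most genes fell against osk. The permutation test was run on the 4 ratios only, and the share of all genes that would pass it is not known.

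The log2 ratio of pgc to osk averaged -6.49 ± 0.42 in days 5 to 8 and -5.50 ± 0.51 in days 1 to 4, a difference of -0.99 (permutation test, adjusted p = 0.000227). The log2 ratio of gcl to osk averaged -4.96 ± 0.31 in days 5 to 8 and -4.31 ± 0.36 in days 1 to 4, a difference of -0.65 (permutation test, adjusted p = 0.000227). For both, all 12 older values lay below the median of the younger ones, and 6 lay below every younger value. Without the 3 libraries lacking spike-in the differences from the permutation test were -0.77 for bcd, -0.79 for pgc and -0.58 for gcl, and all 3 stayed below the threshold. In that setting the edgeR changes of the mRNAs themselves were -0.43 for bcd, -0.37 for pgc, -0.20 for gcl and 0.28 for osk. The ratio differences therefore hold the rise of osk as well. The ratios of all genes to osk were not computed without the 3 libraries. The log2 ratio of grk to osk averaged -5.26 ± 0.27 in days 5 to 8 and -5.31 ± 0.27 in days 1 to 4, a difference of 0.04 that was smaller than the spread between libraries (permutation test, adjusted p = 0.704).

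**Figure D3:**
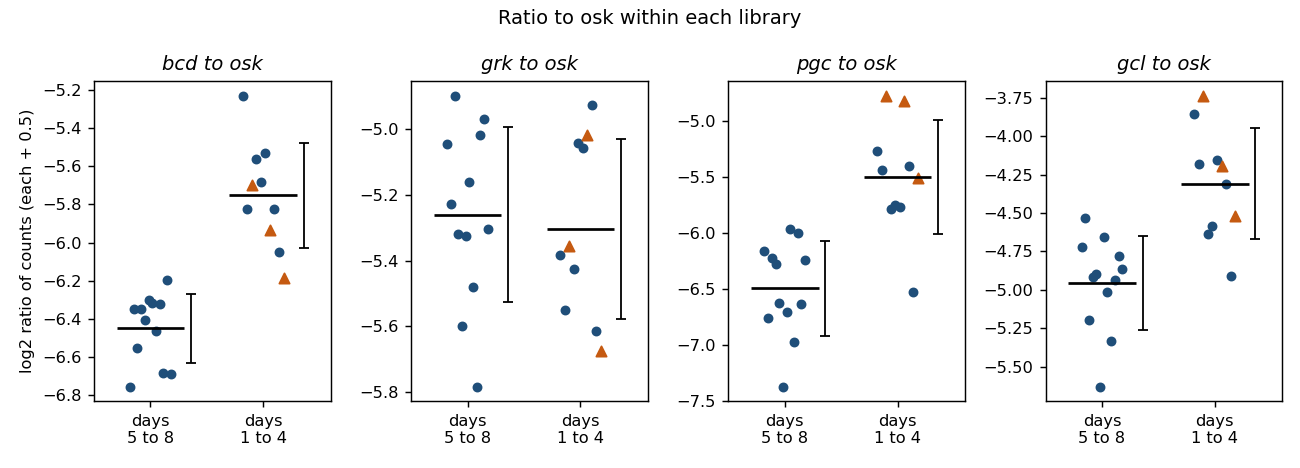
log2 ratio of the counts of bcd, grk, pgc and gcl to those of osk in each library (0.5 added to each count), with days 5 to 8 (n = 12) left of days 1 to 4 (n = 10); bars are means with SD, and triangles mark the 3 libraries that lacked spike-in. The series do not overlap for bcd, lie 0.99 and 0.65 apart on average for pgc and gcl, and overlap throughout for grk.

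Genes that work with the 5 mRNAs were read from 5 lists, each beside the median of -0.02 and the 8.82% called over all tested genes. Of 8 germ plasm and germ cell factors, 0 rose and 2 fell, with a median log2 change of 0.03. The count called lower was 0 to 2 without 1 library and 1 or 2 under the other alternatives. With only the 3 libraries lacking spike-in for days 1 to 4, 2 of the 8 were called higher, against 12.3% of all genes tested. nos, the translational repressor made at the posterior pole, averaged 69.0 ± 12.2 CPM in days 5 to 8 and 97.0 ± 23.6 CPM in days 1 to 4 and fell by 0.50 (edgeR adjusted p = 0.0202), but was not called without the 3 libraries lacking spike-in (-0.35, adjusted p = 0.0895), without replicate 1 of day 1 (-0.40, adjusted p = 0.1002) or without replicate 2 of day 4 (-0.45, adjusted p = 0.0501). vas, a germline RNA helicase, averaged 226 ± 10.9 CPM in days 5 to 8 and 274 ± 47.3 CPM in days 1 to 4 and fell by 0.27 (edgeR adjusted p = 0.0483). That call was lost in 19 of 22 fits without 1 library (adjusted p up to 0.182) and held in the 3 that left out a library lacking spike-in. It was also lost with DESeq2 size factors in edgeR (-0.27, adjusted p = 0.0636), without a filter on low counts (-0.25, adjusted p = 0.117) and with the filter of 1 CPM in 6 libraries (-0.26, adjusted p = 0.0524). With only the 3 libraries that lacked spike-in for days 1 to 4 its change was 0.014 (adjusted p = 0.928). With those 3 left out vas was called, at -0.37 (edgeR adjusted p = 0.00118). The remaining 6, vls, tud, aub, pum, csul and CycB, did not pass.

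Of 18 regulators that localize, store or silence the mRNAs of bcd, osk and grk, 16 were tested, 3 rose and 1 fell, with a median of 0.06. With only the 3 libraries lacking spike-in for days 1 to 4, 9 of the 16 were called higher and 2 lower, where 12.3% of all genes tested were higher and 6.72% lower. fs(1)K10, needed to place grk mRNA, averaged 222 ± 27.3 CPM in days 5 to 8 and 175 ± 15.4 CPM in days 1 to 4 and rose by 0.34 (SE 0.08, edgeR adjusted p = 0.0126). yps, a Y-box protein of the osk mRNA particle, averaged 948 ± 72.0 CPM in days 5 to 8 and 765 ± 60.3 CPM in days 1 to 4 and rose by 0.32 (SE 0.07, edgeR adjusted p = 0.00490). Both calls held under every alternative run. BicD, the adaptor that links mRNA cargo to dynein, averaged 259 ± 15.9 CPM in days 5 to 8 and 214 ± 25.7 CPM in days 1 to 4 and rose by 0.27 (edgeR adjusted p = 0.0248). The call was lost, at a change of like size, without replicate 2 of day 1 (0.27, adjusted p = 0.0570) and without a filter on low counts (0.29, adjusted p = 0.0580). swa, which acts in bcd mRNA localization, averaged 172 ± 18.02 CPM in days 5 to 8 and 213 ± 32.3 CPM in days 1 to 4 and fell by 0.33 (edgeR adjusted p = 0.0222), and was not called without the 3 libraries lacking spike-in (-0.24, adjusted p = 0.0623), nor without replicate 1 of day 1 (-0.33, adjusted p = 0.0566), replicate 2 of day 1 (-0.31, 0.0688) or replicate 2 of day 4 (-0.25, 0.0885). exu and stau, which also act on bcd mRNA, had log2 changes of -0.20 and 0.06 and were not called. orb and aret, a translational activator and a repressor of osk mRNA, had log2 changes of 0.15 and 0.04 and were not called either. cup had 0 counts and BicC 7 counts over all libraries, too few to test, and the annotation holds another gene over the same span and strand as each.

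Of 18 genes of Gurken export and Egf receptor signalling, 1 rose and 0 fell, with a median of 0.11. The count of genes called higher was 4 without a filter on low counts, where 3.06% of all genes tested were higher. It was 6 with only the 3 libraries lacking spike-in for days 1 to 4, where 12.3% were higher, and 0 to 2 without 1 library. aos, a secreted inhibitor of the receptor that the pathway itself induces, averaged 13.2 ± 3.59 CPM in days 5 to 8 and 9.23 ± 5.00 CPM in days 1 to 4 and rose by 0.66 (SE 0.19, edgeR adjusted p = 0.0336). It was not called without replicate 1 of day 1 (adjusted p = 0.109), replicate 2 of day 3 (0.0526), replicate 1 of day 4 (0.0753), replicate 2 of day 5 (0.0587), replicate 1 of day 7 (0.0569), replicate 1 of day 8 (0.05999) or replicate 3 of day 8 (0.0502), with changes between 0.55 and 0.66. With only the 3 libraries lacking spike-in for days 1 to 4 its change was 0.52, not called (adjusted p = 0.124), and with those 3 left out it was 0.86 (adjusted p = 0.0210). Egfr itself had a log2 change of 0.32 (edgeR adjusted p = 0.162), the feedback inhibitor kek1 0.38 (0.132) and mirr, a target in dorsal follicle cells, 0.41 (0.0829), none of them called. cni, which carries Gurken out of the endoplasmic reticulum, had -0.04 (edgeR adjusted p = 0.903). Other genes of the list went down, among them pip at -0.87 (edgeR adjusted p = 0.236) and brn at -0.42 (0.272), not called either. Of the 18 changes, 11 were positive. With the 3 libraries lacking spike-in left out, 1 of the 18 rose and 1 fell, against 6.74% and 6.77% of all genes tested.

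Of 11 dorsal group genes, the maternal system that sets the dorsal-ventral axis of the embryo, 0 rose and 1 fell, with a median of -0.10. The called gene was spz, the ligand of Toll, which averaged 28.4 ± 4.94 CPM in days 5 to 8 and 38.7 ± 8.75 CPM in days 1 to 4, a change of -0.44 (edgeR adjusted p = 0.0403). Without 1 library, the call held where the library was replicate 2 of days 1, 2, 3, 4 or 8 or replicate 1 of days 5, 6 or 7, and was lost in the other 14 fits (-0.45 to -0.33, adjusted p up to 0.144). With only the 3 libraries lacking spike-in for days 1 to 4 the change of spz was -0.29 and not called (adjusted p = 0.251), and with those 3 left out it was -0.53 (adjusted p = 0.0145). The count of dorsal group genes called lower was 3 with those 3 libraries left out, where 6.77% of all genes tested were lower. It was 3 without a filter on low counts (3.31% of all genes) and 0 with only those 3 libraries for days 1 to 4 (6.72%). It was 2 with DESeq2 and with the replicate block, and 0 to 2 without 1 library. Of 7 maternal genes of the terminal and anterior-posterior systems, 0 rose and 3 fell, with a median of -0.32. hb, whose maternal mRNA is repressed by Nanos in the posterior of the embryo, averaged 33.7 ± 4.45 CPM in days 5 to 8 and 74.9 ± 17.6 CPM in days 1 to 4 and fell by 1.15 on the log2 scale (SE 0.12, edgeR adjusted p = 1.81e-06). cad, whose mRNA is a translational target of Bicoid, averaged 130 ± 12.8 CPM in days 5 to 8 and 178 ± 26.9 CPM in days 1 to 4 and fell by 0.47 (SE 0.08, edgeR adjusted p = 0.000352). With only the 3 libraries lacking spike-in for days 1 to 4, 1 of the 7 was called higher and 3 lower. Of all genes tested in that fit, 12.3% were higher and 6.72% lower. hb and cad were called under every alternative run, and nos, on this list too, was the third. With the 3 libraries lacking spike-in left out, 1 germ plasm gene fell, 3 regulators rose and 0 fell, and 2 of the terminal and anterior-posterior genes fell, where edgeR called 13.5% of all genes tested. The lists were chosen with earlier results of these data known.

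**Figure D4:**
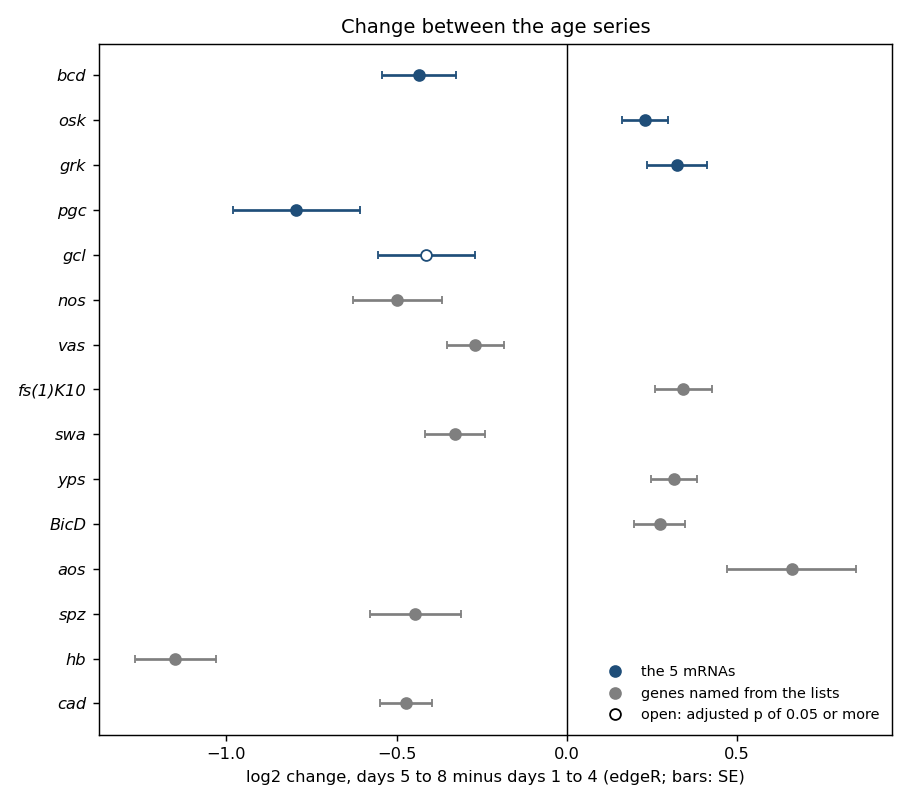
log2 change of the 5 mRNAs and of the genes named from the lists, days 5 to 8 minus days 1 to 4, from edgeR with bars of 1 SE; filled points had an adjusted p under 0.05. All 22 libraries were used. pgc lies at -0.79, and at -0.37 without the 3 libraries lacking spike-in, hb lies at -1.15, osk at 0.23, and gcl, at -0.41, is the open point.

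The genes most like each mRNA in pattern were found as the smallest root mean square difference of centred log2 CPM over the 22 libraries, among the 6754 tested genes that averaged 5 CPM or more. Nearest to osk were GC1, ZnT35C and Cdc7, at 0.14, 0.15 and 0.15, against a median of 0.36 over all those genes. Nearest to grk were Hex-A, Ef1gamma and CG18766, at 0.13, 0.15 and 0.16, against a median of 0.38. Nearest to bcd were CG4991, cal1 and yin, at 0.18, 0.21 and 0.21, against a median of 0.45. Nearest to gcl were CG10960, rdx and nos, at 0.19, 0.21 and 0.21, against a median of 0.48. pgc had no equally close gene, its nearest being Jabba, CG13551 and sub at 0.35, 0.35 and 0.36, against a median of 0.62. The 5 mRNAs themselves were left out of the search, so it does not tell how near they lie to each other.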

How the data were processed

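PolyA RNA of 22 libraries of anterior ovarioles was sequenced by the authors. The values deposited by the authors are whole-number read counts for each annotated feature, without normalization. Per the submitters' processing notes, HISAT2 2.0.1, HTSeq 0.6.1p1, SAMtools 0.1.2 and CASAVA 1.8.2 were used. The treatment of reads shared between features was not stated in the sources used here. Of 19146 features, 1572 transposon insertions (1.46 to 4.11% of counts) and 96 spike-in transcripts stayed out of library sizes and tests.

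Genes were tested with edgeR 4.0.16 (TMM, minimum count 10, 8024 genes, a coefficient per day over all 22 libraries, 14 residual degrees of freedom, quasi-likelihood F-test, Benjamini-Hochberg adjustment over all tested genes, threshold 0.05) in R 4.3.3. Changes are days 5 to 8 minus days 1 to 4, and their SE is the change over the square root of F. Ratios to osk used counts plus 0.5 and a two-sided permutation test of 100000 resamples. On simulated data with 50 genes changed at each size, edgeR recovered 84% of 2-fold and 56% of 1.5-fold changes between the series. No 2 replicates agreed within sampling noise. The labels call the replicates independent and biological, and p-values measure the spread between these libraries.

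Named were the 5 mRNAs, up to 4 called genes of a list with the largest change (otherwise its most abundant gene), and the 3 nearest genes of each mRNA. Other genes of the lists that are given with a value were chosen after their values were seen. The members and lists were chosen with earlier results of these data known. Alternatives were DESeq2 1.42.0, its size factors, other filters, a replicate block, fits without the 3 libraries lacking spike-in or with those alone for days 1 to 4, a fit of a series alone, spike-in library sizes for days 5 to 8, leaving out each library, and for the ratios a pseudocount of 5 and medians. Those for list genes were added after the data were seen.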

Additional observations from a re-analysis of the deposited data

Results flagged for a closer look

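osk had 2740 CPM in replicate 2 of day 4, far above the other 9 libraries of days 1 to 4, of which replicate 1 of day 4 came next with 2274 CPM. That library is 1 of the 3 that lacked spike-in. Chance sets apart about 1 in 20 such groups, and in bcd, grk, pgc and gcl no library of days 1 to 4 stood out by the same measure. Without replicate 2 of day 4 the log2 change of osk between the series was 0.27.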

How the results depend on the processing

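Leaving out 1 library at a time, the log2 changes between the series stayed between -0.49 and -0.38 for bcd, 0.21 and 0.27 for osk, 0.28 and 0.36 for grk, -0.90 and -0.57 for pgc and -0.47 and -0.31 for gcl, and their calls are given beside each result (a day left with 1 library takes its spread from the other days). With only the 3 libraries that lacked spike-in for days 1 to 4, the changes were -0.33 for bcd, 0.16 for osk and 0.26 for grk, none of them called, -0.61 for gcl, called, and 0.014 for vas, a turned direction. Without those 3, pgc had -0.37 and was not called. Without a filter on low counts osk (0.24, adjusted p = 0.144) and grk (0.34, adjusted p = 0.0699) lost their calls in edgeR and gcl gained one (-0.40, adjusted p = 0.00473). The cause of these shifts was not tested. DESeq2, its size factors and the filter of 1 CPM in 6 libraries changed no call of the 5 mRNAs between the series. Counts and calls of the list genes under the alternatives stand beside those results.

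The count of genes called between the series was 1157 without the 3 libraries (540 of them among the 708), 1510 with only those 3 and 401 to 809 without 1 library, lowest without replicate 1 of day 1. Among days 1 to 4 it was 55 with DESeq2, 275 without a filter, 16 without the 3 libraries, 0 in a fit of that series alone and 0 to 47 without 1 library. Among days 5 to 8 it was 17 with DESeq2, 135 without a filter, 5 without the 3 libraries, 4 in a fit of that series alone, 106 with spike-in library sizes and 0 to 4 without 1 library. None of the 5 mRNAs was called among days under any of these alternatives, and the differences of the ratios to osk kept their direction and their side of the threshold under every alternative run.

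The replicate number as a block gave 2 genes among days 5 to 8 and 685 between the series, with changes of -0.42 for bcd, 0.24 for osk, 0.33 for grk, -0.73 for pgc and -0.35 for gcl, and changed no call of the 5 mRNAs. Deviations from day means were correlated over pairs of libraries of different days, within and between the series. Same-numbered libraries had a median of 0.05 (-0.51 to 0.39), against a median of -0.02 for other numbers. In a search within each series, 15 of the 22 libraries correlated best with a library of their own number. This hints at a link the labels do not give, and the number to be had by chance was not computed. Not every same-numbered pair over both series correlated positively, and the numbers were not taken as pairs. Correlations over both series cannot tell whether same-numbered libraries are linked within a series. A block within each series was not run. Depth limits bcd and pgc most, with as few as 42 and 30 counts in a library.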
